A study of Mus musculus with 2 samples.

Results

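The 38 genes described here are expressed by T cells, by B cells, by leukocytes in general, or by the stroma and venules of lymph nodes. They were measured by total RNA sequencing of adrenal glands from 14-day-old male B6CASTF1/J mice, first-generation offspring of the inbred strains C57BL/6J and CAST/EiJ. The series has 1 group of 2 libraries, biological replicates 1 and 2, each made from 300 ng of RNA with ERCC spike-ins, without any treatment named in the labels. The labels speak of pools with the wording 3x Males and number them alike in one place and apart in another, so how many animals stand behind a library is not known. All 38 genes were found in both quantifications of both libraries, among 55536 annotated genes. They were selected on earlier results of these same libraries, in which lymphocyte and venule genes stood higher in replicate 1. The direction and size of the difference between the libraries are therefore given as a description, and with a single group no p-value is given.

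Lymph nodes are the sites where naive lymphocytes meet antigen. T cells recognise antigen through a receptor of alpha and beta chains held in a complex with the CD3 chains, and B cells through surface immunoglobulin held with the chains encoded by Cd79a and Cd79b. Naive lymphocytes leave the blood through high endothelial venules, whose walls carry sulfated sugar ligands for lymphocyte homing receptors, and are then drawn by the chemokines of the stroma, CCL21 and CCL19 to T cell zones and CXCL13 to B cell follicles. The adrenal gland itself is made of a steroid-producing cortex and a catecholamine-producing medulla and is embedded in fat.

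Depth was 32963248 expected counts in replicate 1 and 36260745 in replicate 2. Where 2 values are given for a gene or list without further words, that of replicate 1 stands before that of replicate 2. Markers of the labelled tissue were abundant and close in both libraries: 6 cortex genes summed to 5919 and 6436 TPM, and 5 medulla genes to 1305 and 1336 TPM. TPM is a level corrected for transcript length and scaled to the same total in each library. Another tissue differed between the libraries in the opposite direction to the genes described here, since 4 hepatocyte genes summed to 235.6 TPM in replicate 1 and 4138 TPM in replicate 2. In bulk tissue, fewer cells of a type and less RNA per cell cannot be told apart.

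Every one of the 38 genes had a higher level in replicate 1. Their levels summed to 347.5 TPM in replicate 1 and 44.5 TPM in replicate 2, from 13069 and 2071 expected counts. In replicate 1 all 38 reached 1 TPM, and in replicate 2 only 12 did. Taken as log2(TPM + 1) in replicate 1 less that in replicate 2, the median difference was 1.73, beside a median of 0.058 and an SD of 0.523 over all 12544 background genes that averaged 1 TPM or more. Background genes are the nuclear protein-coding genes together with the immunoglobulin and T cell receptor constant genes, the members included. Of the 33 members that averaged 1 TPM or more, 33 were over 2-fold higher in replicate 1 and 0 in replicate 2. Over the background genes, 325 or 2.59% were over 2-fold higher in replicate 1 and 422 or 3.36% in replicate 2. Since the list was chosen on this same contrast, nothing is read from its count against that share.

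**Figure D1:**
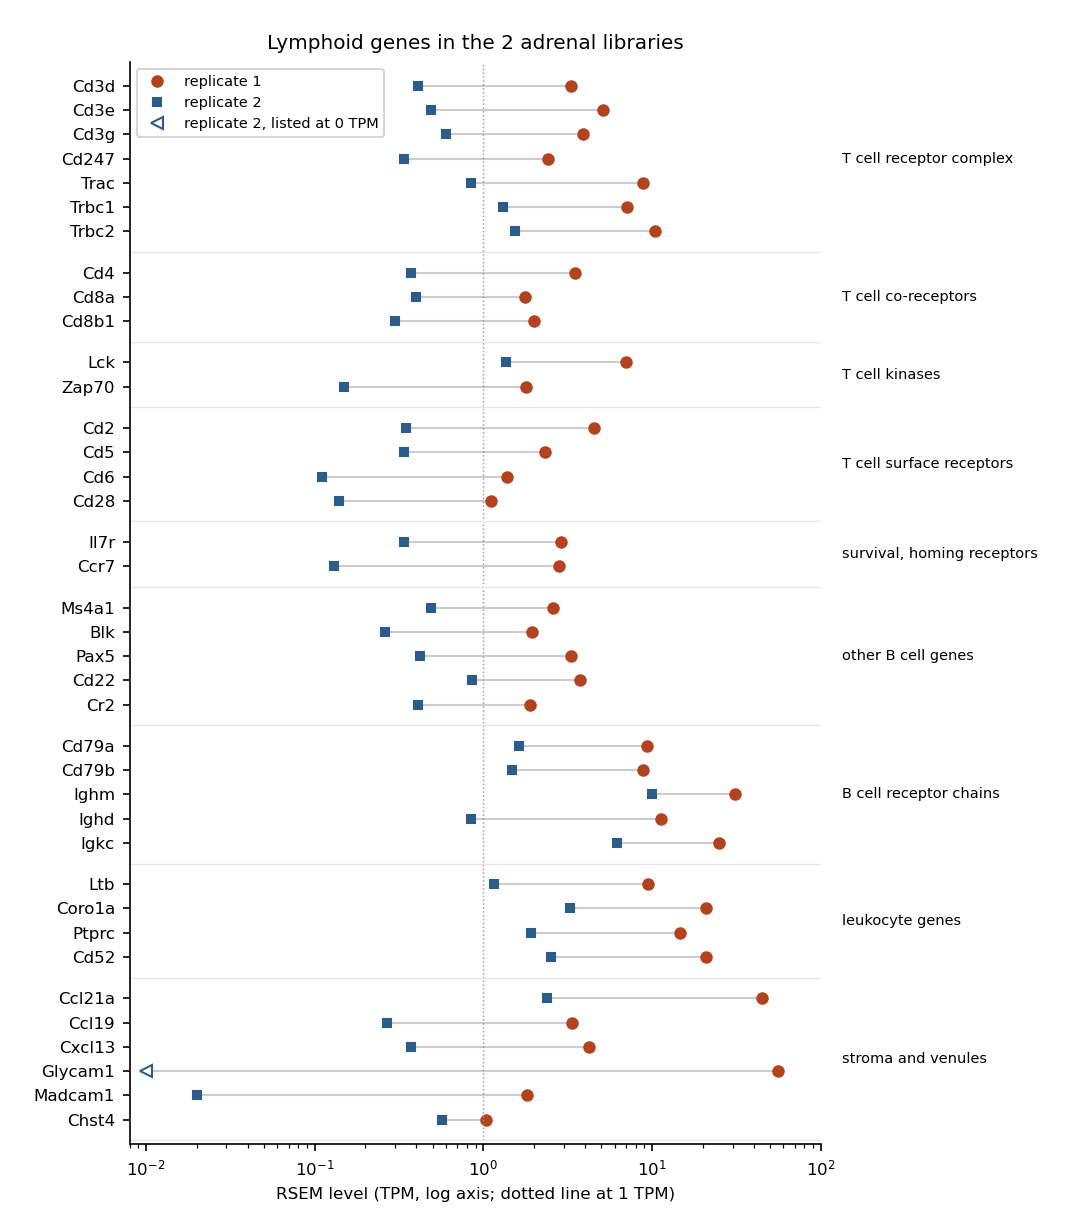
Level of each of the 38 genes in replicate 1 (circles) and replicate 2 (squares), in TPM on a log axis, ordered by role; an open triangle at the left edge marks a gene listed at 0. Each circle lies to the right of its square, from Chst4 with 1.04 and 0.57 TPM to Glycam1 with 55.4 and 0 TPM.

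The 5 members below a mean of 1 TPM were Zap70, Cd6, Cd28, Madcam1 and Chst4, so these are described by counts as well as TPM. Cd6 had 118 and 11 counts, Cd28 had 140 and 21 counts, and Madcam1 had 1.81 and 0.02 TPM. Their other values, and those of Zap70 and Chst4, are given below. The 95% credibility bounds that accompany each deposited TPM did not overlap between the libraries for 36 of the 38, the exceptions being Cr2 and Chst4. Among members averaging 1 TPM or more it was 32 of 33, beside 1461 or 11.6% of the background genes with the replicate 1 bounds above those of replicate 2. These bounds cover the assignment and counting of reads in a library, not the spread between animals. At a mean of at least 5 TPM, 12 members remained and 12 were over 2-fold higher in replicate 1, beside 46 of 8320 background genes or 0.553%.

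**Figure D2:**
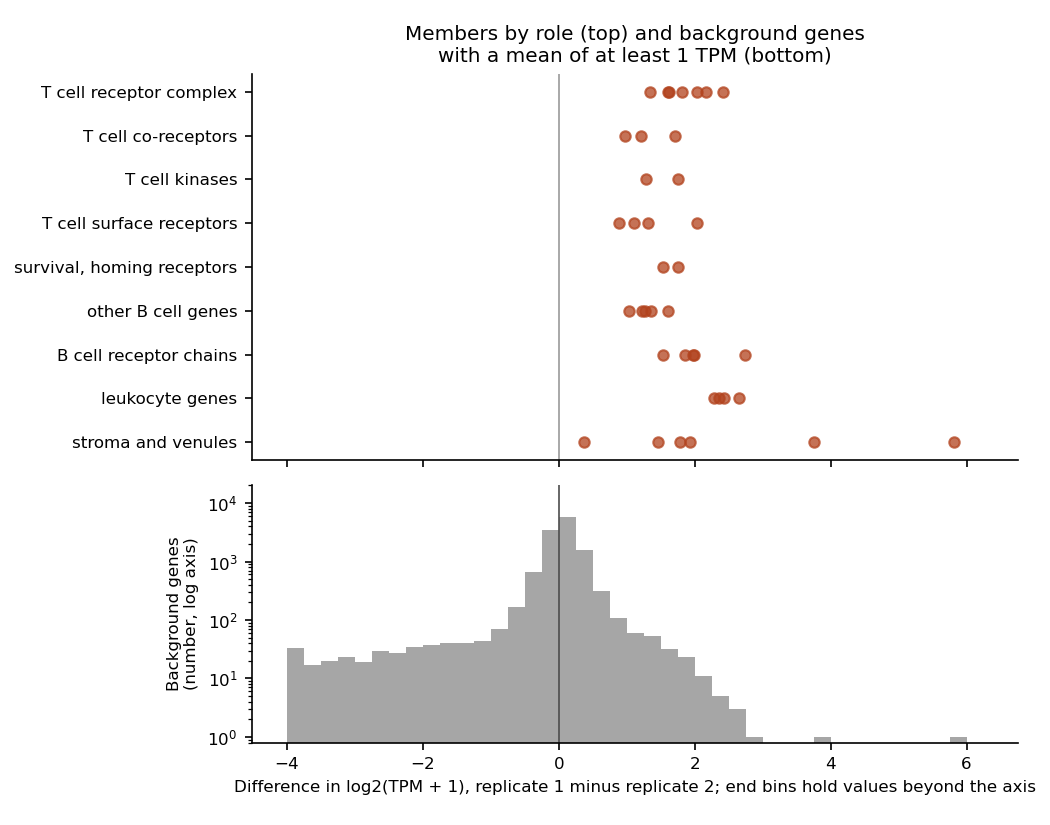
Difference in log2(TPM + 1), replicate 1 minus replicate 2, for the 38 genes by role (top, 1 point a gene) and the number of background genes in bins of that difference on a log axis (bottom, members with a mean of at least 1 TPM included). The members lie between 0.38 for Chst4 and 5.82 for Glycam1, and the background has its median at 0.058.

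The 7 genes of the T cell receptor complex summed to 41.05 TPM in replicate 1 and 5.53 TPM in replicate 2, a mean of 23.3 ± 25.1 TPM (SD, n = 2). Trac, the constant region of the alpha chain, had 8.89 and 0.85 TPM. Trbc2 and Trbc1, the alternative constant regions of the beta chain, reached 10.39 and 7.08 TPM in replicate 1, against 1.54 and 1.30 TPM in replicate 2. The signalling chain genes of the complex were below the receptor chain genes in replicate 1 and below 1 TPM in replicate 2. Cd3e had 5.09 and 0.49 TPM, Cd3g 3.87 and 0.60 TPM, and Cd3d 3.32 and 0.41 TPM in replicates 1 and 2. Cd247, which encodes the zeta chain with most of the signalling motifs, had 2.41 and 0.34 TPM. Scaled to the library totals, the summed counts of the complex, 1084 and 148, were 8.06-fold higher in replicate 1, with a 95% exact interval of 6.78 to 9.63. Intervals of this kind here and below cover counting error alone.

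The beta chain genes share much of their sequence, so the split of reads between them is less certain than their sum. Trbc2 and Trbc1 differ at 24 of 512 aligned bases, an identity of 95.3%, and 48.5% and 44.8% of their 31-base words also occur in another gene. The stretch below, bases 452 to 511 of those aligned, holds 12 of those differences and is shown because reads over such bases help to tell the genes apart. Trbc2 is annotated at chr6:41546730-41548352 and Trbc1 at chr6:41538218-41539881, both on the plus strand. Both lines are in transcript orientation from GENCODE M21 on mm10, and capitals mark the bases that differ.
Trbc2: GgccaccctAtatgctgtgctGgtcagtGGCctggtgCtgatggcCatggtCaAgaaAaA
Trbc1: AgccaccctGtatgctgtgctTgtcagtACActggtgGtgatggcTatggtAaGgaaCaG
The summed level of the pair, which does not depend on that split, was 17.5 TPM in replicate 1 and 2.84 TPM in replicate 2, above that of Trac in each library.

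Co-receptor genes of the CD4 and of the CD8 lineage were read in replicate 1, and bulk levels do not tell which cells expressed them. Cd4, whose product binds class II molecules, had 3.47 and 0.37 TPM. Cd8a and Cd8b1, whose products bind class I molecules as a pair, reached 1.76 and 2.00 TPM in replicate 1, against 0.40 and 0.30 TPM in replicate 2. The level of Cd4 relative to Cd8a was 1.97 and 0.925, and relative to Cd8b1 it was 1.74 and 1.23, so which lineage gene was higher in replicate 2 depended on the CD8 chain. Cd8a rested on 154 and 42 counts, and its ratio between the libraries, 4.03-fold with an interval of 2.85 to 5.82, was the lowest of the T cell genes. The interval for Cd4, 6.38 to 13.4 around 9.12-fold, lay above that of Cd8a and overlapped that of Cd8b1, 3.84 to 12.4.

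Lck, the kinase that phosphorylates the CD3 chains, was the most abundant of the T cell kinase and surface receptor genes, with 6.99 and 1.36 TPM. Zap70, the kinase recruited to the phosphorylated chains, had 1.79 and 0.15 TPM, from 89 and 9 counts. Among surface receptors, the adhesion molecule gene Cd2 stood at 4.50 and 0.35 TPM. Cd5 and Cd6, related receptors that tune T cell receptor signals, reached 2.33 and 1.38 TPM in replicate 1, against 0.34 and 0.11 TPM in replicate 2. Cd28, the co-stimulatory receptor of naive T cells, stood at 1.11 and 0.14 TPM, the lowest level of the T cell genes in replicate 1. Over all 16 T cell members the ratio of TPM between the libraries ran from 4.40 for Cd8a to 12.9 for Cd2, with a median of 7.51. Their summed counts of 2532 and 382 gave 7.29-fold, with an interval of 6.55 to 8.14.

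The receptors that keep naive lymphocytes alive and bring them into lymph nodes had ratios above that median. Il7r, the receptor subunit for the survival cytokine interleukin 7, had 2.87 and 0.34 TPM. Ccr7, the receptor for CCL21 and CCL19, was at 2.80 and 0.13 TPM. The counts of Ccr7, 173 and 9, gave 21.1-fold with an interval of 10.9 to 47.0. Over both genes the summed counts were 12.6-fold higher in replicate 1, with an interval of 9.11 to 17.9.

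**Figure D3:**
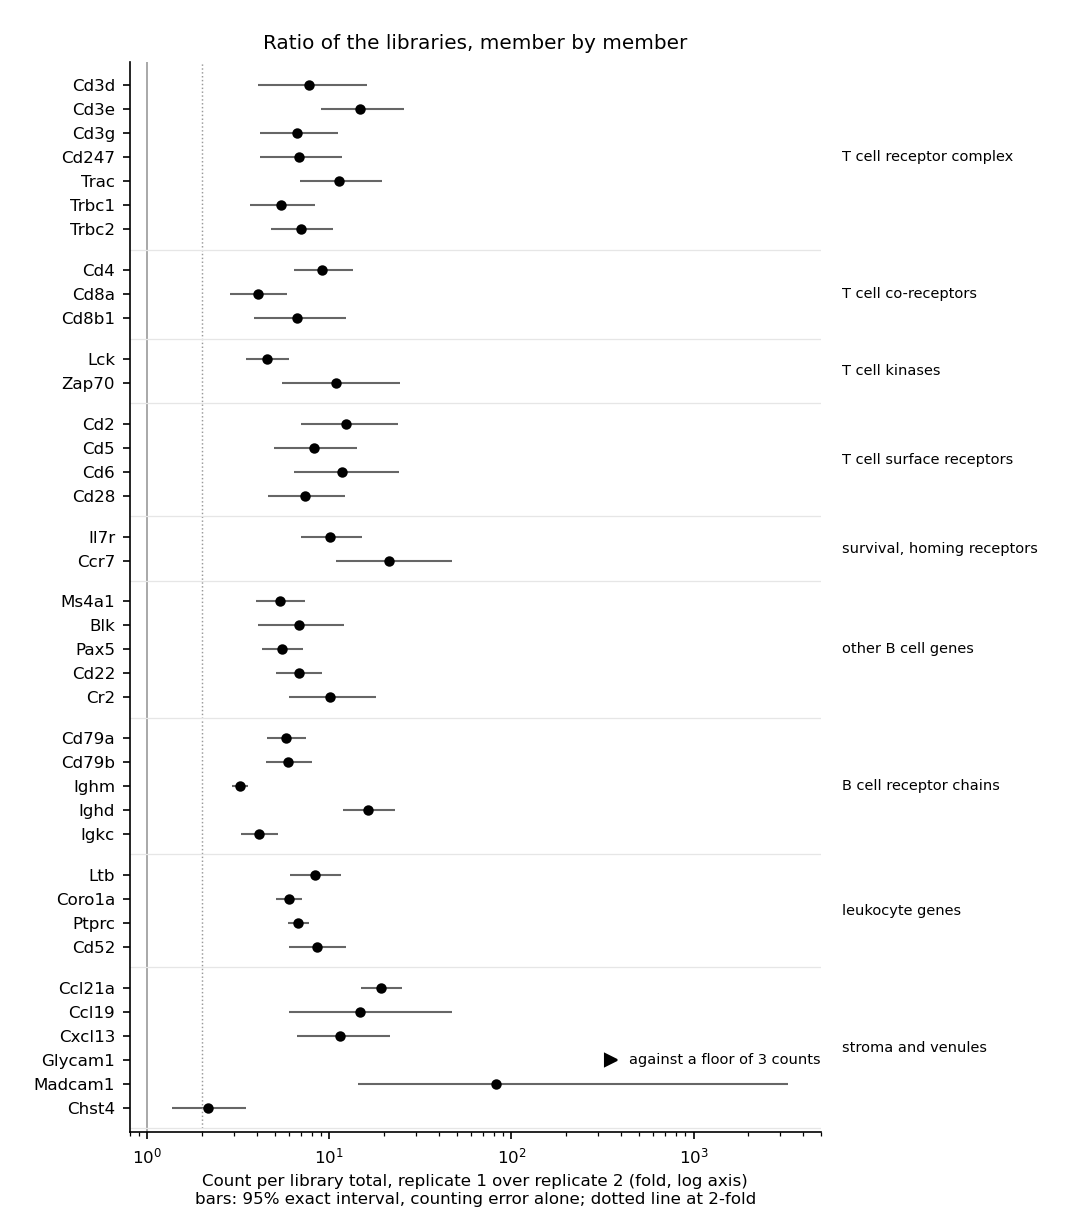
Ratio of the counts per library total, replicate 1 over replicate 2, for each of the 38 genes on a log axis, with 95% exact intervals for counting error alone; the arrowhead for Glycam1, at 0 counts in replicate 2, marks the 354-fold ratio against a floor of 3 counts. The low end is held by Chst4 at 2.16 and Ighm at 3.22, and Ighd at 16.3 and Ccr7 at 21.1 stand to the right of the other lymphocyte genes.

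The 5 B cell receptor genes summed to 85.31 TPM in replicate 1 and 20.13 TPM in replicate 2, a mean of 52.7 ± 46.1 TPM (SD, n = 2), the highest level of the lymphocyte groups in each library. Ighm, the constant region of IgM heavy chains, was at 30.95 and 10.02 TPM, from 1554 and 531 counts. Igkc, the constant region of kappa light chains, was at 24.95 and 6.16 TPM. The signalling chain genes Cd79a and Cd79b, measured at 9.32 and 8.82 TPM in replicate 1 and 1.63 and 1.48 TPM in replicate 2, kept a like proportion to each other. Scaled counts gave 5.79-fold for Cd79a (4.54 to 7.46) and 5.97-fold for Cd79b (4.51 to 8.02).

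Ighd, the constant region of IgD, departed from the other immunoglobulin genes. IgD is made from the same primary transcript as IgM by alternative splicing and is carried by mature naive B cells. Its level was 11.27 and 0.84 TPM, from 607 and 41 counts, which is 16.3-fold with an interval of 11.9 to 22.9. For Ighm the ratio was 3.22-fold with an interval of 2.92 to 3.56, so the intervals were apart. Within the libraries, the level of Ighd relative to Ighm was 0.364 in replicate 1 and 0.0838 in replicate 2. The kallisto quantification gave 0.404 and 0.0803. Replicate 2 thus had low IgD RNA for its IgM RNA, whichever quantification was used.

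The form of the IgM transcript also differed. The heavy chain gene makes a membrane form, which ends in a transmembrane segment, and a secreted form, which ends earlier. Of Ighm counts in replicate 1, 68.3% fell on the membrane form (exact binomial bounds at 95% of 66.0 and 70.6). In replicate 2 the share was 49.1% (44.8 to 53.5). By kallisto the shares were 75.5% and 54.6%, outside those bounds. The bounds, and those for Ighd below, do not cover how reads were assigned between the forms. For Ighd the membrane form held 97.1% of counts in replicate 1 (95.4 to 98.2) and 82.4% in replicate 2 (67.9 to 92.8), from 41 counts in replicate 2. By kallisto the Ighd shares were 96.1% and 95.1%, so the gap between the libraries was seen with RSEM and not with kallisto. The heavy chain genes of switched classes were scarce: 6 such genes held 14 counts in replicate 1 and 6 in replicate 2, against 2161 and 572 counts on Ighm and Ighd together.

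The remaining B cell genes were at lower levels than the receptor genes in replicate 1. Cd22, an inhibitory receptor that binds sialic acids, was at 3.76 and 0.86 TPM, and Pax5, the transcription factor that holds B cell identity, at 3.32 and 0.42 TPM. The deposited TPM of Pax5 and Cd22 lay below their own credibility bounds in both libraries (in replicate 1, 3.62 to 6.19 for Pax5 and 4.14 to 6.81 for Cd22), so their levels are uncertain. In replicate 2 the same held for 8 members, these and Cd247, Cd4, Cd6, Cr2, Coro1a and Glycam1. Ms4a1, which encodes the surface protein CD20, was at 2.60 and 0.49 TPM. Blk, a Src-family kinase of B cells, was at 1.93 and 0.26 TPM. Cr2, the complement receptor of mature B cells and follicular dendritic cells, was at 1.89 and 0.41 TPM, with 146 and 16 counts. For the 10 B cell members the median ratio of TPM was 5.51, and their summed counts of 4476 and 1021 gave 4.82-fold, with an interval of 4.50 to 5.17. That interval lay below that of the T cell members. Ighm, with the lowest ratio, held 1554 of the 4476 counts and 531 of the 1021.

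The median level of the B cell members was 6.29 and 0.85 TPM, and that of the T cell members 3.40 and 0.385 TPM. As a log2 ratio, B cell over T cell, this was 0.890 and 1.14, a mean of 1.02 ± 0.179 (SD, n = 2). With kallisto levels the ratio was 1.05 in replicate 1 and 0.525 in replicate 2, so which library had the higher ratio depended on the quantification. In each library and by each quantification the B cell median was above the T cell median.

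The variable segments of the receptors, which the list does not hold, were counted as well. Whether their reads came from rearranged genes was not tested. Immunoglobulin variable genes, 218 in the annotation, held 363.9 counts in replicate 1 and 94 in replicate 2, on 128 and 65 genes with at least 1 count. T cell receptor variable genes, 144 in the annotation, held 175.4 and 22 counts, on 64 and 17 genes. Scaled to the library totals, these were 4.26-fold (3.39 to 5.40) and 8.75-fold (5.60 to 14.3) higher in replicate 1. By kallisto the counts were lower, at 148.0 and 29.4 for immunoglobulin and 75.9 and 9 for T cell receptor variable genes. By RSEM the counts of both kinds were spread over many variable genes in replicate 1. Joining segments were listed at 0 counts in both libraries.

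The 4 genes expressed across leukocytes summed to 65.96 TPM in replicate 1 and 8.81 TPM in replicate 2, a mean of 37.4 ± 40.4 TPM (SD, n = 2). Their ratios of TPM lay within a narrow span. Coro1a, an actin-binding protein of leukocytes, had 909 and 167 counts and a TPM ratio of 6.42, the lowest of the group. Cd52, a small lipid-anchored surface protein, had 286 and 37 counts and a TPM ratio of 8.39, the highest. Ltb, which encodes lymphotoxin beta, the lymphocyte signal that maintains lymph node stroma, had 332 and 44 counts, or 8.30-fold with an interval of 6.05 to 11.6. Ptprc, which encodes the phosphatase CD45, had 1630 and 265 counts, or 6.77-fold with an interval of 5.94 to 7.73.

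Ptprc also carries information on the kind of leukocyte, because 3 variable exons are kept in B cells and skipped in many other leukocytes. Of the counts on the 3 annotated transcripts that span this region and most of the gene, the transcript with all 3 variable exons held 59.3% in replicate 1 (55.9 to 62.7) and 30.1% in replicate 2 (23.1 to 37.98). Those transcripts carried 814.1 of the 1630 Ptprc counts in replicate 1 and 155.6 of the 265 in replicate 2. By kallisto the shares were 77.7% and 18.2%. The form with all variable exons was the larger share in replicate 1 and the smaller in replicate 2 by both quantifications, though its size depended on the method. The forms share most of their bases, and the intervals do not cover how reads were assigned among them.

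**Figure D4:**
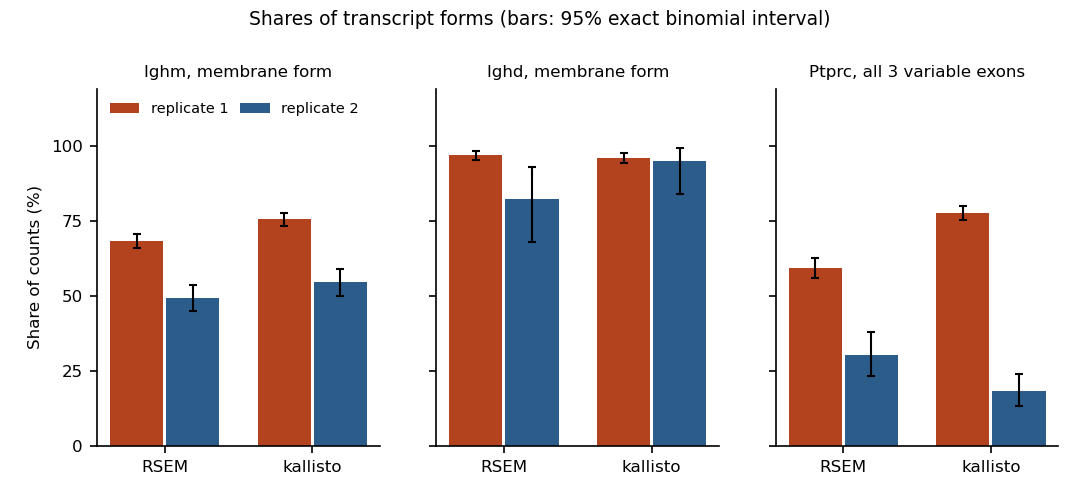
Share of counts (%) on the membrane forms of Ighm and Ighd and on the Ptprc transcript with all 3 variable exons, in replicate 1 and replicate 2 and by each quantification, with 95% exact binomial intervals. The Ighm and Ptprc shares are higher in replicate 1 by both quantifications, at 68.3% and 59.3% by RSEM, whereas the kallisto shares of Ighd are 96.1% and 95.1%.

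The widest range of ratios was among the 6 genes of lymph node stroma and venules, which summed to 110.6 TPM in replicate 1 and 3.61 TPM in replicate 2, a mean of 57.1 ± 75.7 TPM (SD, n = 2). Their summed counts, 2446 and 115, gave 23.4-fold, with an interval of 19.4 to 28.5 that lay above those of the T cell, B cell and leukocyte genes. Glycam1, a secreted mucin that carries sulfated homing ligands in high endothelial venules, was the most abundant of the 38 genes in replicate 1. It had 966 counts and 55.40 TPM there and 0 counts in replicate 2. With the replicate 2 library set to a floor of 3 counts, Glycam1 stood 354-fold higher in replicate 1. The lower bound of its 95% exact interval, which counts the 0 as measured, was 287.5-fold. Glycam1, annotated at chr15:103562759-103565081, shared no 31-base word with another gene. Madcam1, an adhesion molecule of venules in mucosal lymphoid tissue that binds the integrin of gut-homing lymphocytes, had 75 counts in replicate 1 and 1 in replicate 2. That is 82.5-fold with an interval of 14.4 to 3302. Chst4, a sulfotransferase that completes such ligands, behaved otherwise, with 57 and 29 counts and 1.04 and 0.57 TPM, or 2.16-fold with an interval of 1.36 to 3.51. It was the only member with a TPM ratio under 2, at 1.82.

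The chemokine genes of the stroma were all higher in replicate 1. Ccl21a stood at 44.80 and 2.38 TPM, from 1135 and 65.3 counts, which is 19.2-fold with an interval of 15.0 to 25.1. Ccl19, the other ligand of CCR7, had 66.8 and 5.2 counts, which is 14.7-fold with an interval of 6.01 to 46.9, and by kallisto TPM its ratio was 4.00. Cxcl13, which draws B cells through the receptor CXCR5, had 146 and 14 counts, which is 11.5-fold with an interval of 6.62 to 21.5. The count of Ccl19 is uncertain, because 58.8% of its 31-base words also occur in other annotated genes. Outside the chemokines and the beta chain genes, a share above 5% was found for Cd79a, at 12.2%, and Cd8b1, at 8.40%.

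Ccl21a belongs to a group of near-identical copies, and 80.6% of its 31-base words also occur in another gene. Ccl21a and Ccl21b differ at 2 of 402 aligned bases, an identity of 99.5%. The stretch below, bases 25 to 84 of those compared, is shown for how little separates the copies. Both lines are in transcript orientation from GENCODE M21 on mm10, and the capital marks the base that differs. Ccl21a is annotated at chr4:42772860-42773993 and Ccl21b at chr4:42255767-42256432.
Ccl21a: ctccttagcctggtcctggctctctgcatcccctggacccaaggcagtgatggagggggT
Ccl21b: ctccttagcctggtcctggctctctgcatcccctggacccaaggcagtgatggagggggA
Summed over the 9 annotated rows and 6 symbols of the group, the counts were 1278 in replicate 1 and 112.0 in replicate 2, or 12.6-fold. Of these, Ccl21a held 88.8% and 60.7%. The sum does not depend on how reads were divided among copies, and the ratio for Ccl21a alone is the more uncertain of the values.

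The RefSeq table of promoters, on GRCm38.p6, held 27 promoter windows of 22 of the 38 genes, each of 300 bases, among 32851 windows in all. An Ets-type motif, CAGGAAG on either strand, occurred in 13 of the 27 windows or 48.1%, beside 13.3% of all windows. A kappaB-type motif, GGGANNNNCC, occurred in 9 or 33.3%, beside 20.7%. CCCNNGGG, an EBF-type motif, occurred in 4 or 14.8%, beside 13.7%. The octamer ATGCAAAT was found in 0 of the 27 windows, beside 1.74% of all, which says only that those letters are not in these windows. Some genes have more than 1 window, and a match is a description of letters, not a site of binding.

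Upstream sequence is shown for 3 genes, Glycam1 for the venules, Cxcl13 for the stroma and Ltb for the lymphocyte signal to it. The stretches taken in the same way for Cd79a and Cd3e, of 134 and 150 bases, held 0 matches to these motifs and are not shown. Outside those stretches, a promoter window of Cd79a and of Cd3e did hold an Ets-type match and is counted above. Each stretch shown lies just upstream of the annotated start and runs in the direction of the gene, and capitals mark the Ets-type and kappaB-type matches. Glycam1 is at chr15:103565082-103565231 on the minus strand with 1 Ets-type match, Cxcl13 at chr5:95956789-95956938 on the plus strand with 1 kappaB-type match, and Ltb at chr17:35194289-35194438 on the plus strand with an Ets-type match followed by a kappaB-type match.
Glycam1: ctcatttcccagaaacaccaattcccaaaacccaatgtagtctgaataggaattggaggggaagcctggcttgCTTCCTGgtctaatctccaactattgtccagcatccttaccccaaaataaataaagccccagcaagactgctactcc
Cxcl13: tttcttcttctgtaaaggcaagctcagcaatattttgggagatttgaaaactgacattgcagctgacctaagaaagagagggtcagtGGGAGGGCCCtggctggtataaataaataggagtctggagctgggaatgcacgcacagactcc
Ltb: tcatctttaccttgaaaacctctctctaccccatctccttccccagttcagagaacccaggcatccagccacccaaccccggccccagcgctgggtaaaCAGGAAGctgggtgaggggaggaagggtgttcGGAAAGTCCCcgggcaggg

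Genes outside the 38 that belong to the same cells were read from lists that were drawn up with earlier results of these data known. In a list of 20 further B cell genes, 14 of the 16 that averaged 1 TPM or more were over 2-fold higher in replicate 1 and 0 in replicate 2. Its most abundant genes were Ly6d, at 154.6 and 139.0 TPM, and Ebf1, at 13.54 and 9.58 TPM, which were the 2 not past that fold. Cd37, a tetraspanin, followed with 10.85 and 1.96 TPM, and Iglc2, a lambda light chain constant region, with 9.31 and 1.61 TPM. Of 20 further T cell genes, 6 of the 8 that averaged 1 TPM or more were over 2-fold higher in replicate 1. The 2 others were Tcf7, a transcription factor, at 20.91 and 11.22 TPM, and Thy1, also a gene of neurons and fibroblasts, at 15.13 and 9.64 TPM. The median difference in log2(TPM + 1) was 1.11 for the B cell list and 0.62 for the T cell list.

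The partners of the homing genes were measured as well. Of 7 genes of lymphocyte homing and egress, 5 were over 2-fold higher in replicate 1, among them Itgb7, the integrin chain that binds the product of Madcam1, with 4.91 and 0.80 TPM. The 2 not past that fold, S1pr1 at 17.66 and 13.72 TPM and Cxcr4 at 13.26 and 10.72 TPM, are also expressed by blood vessels and other tissue. All 7 genes of class II antigen presentation were over 2-fold higher in replicate 1, with Cd74 at 75.59 and 18.01 TPM and H2-Aa at 28.83 and 5.86 TPM. Of 14 further genes of high endothelial venules and lymphoid stroma, 6 had a mean of at least 1 TPM and 2 were over 2-fold higher in replicate 1, namely Gcnt1 and Ackr1. Fut7, the fucosyltransferase of the homing ligands, singled out after its values were seen, had 42 counts in replicate 1 and 1 in replicate 2. The most abundant genes of that list, Enpp2 at 28.26 and 24.67 TPM and Ltbr at 18.63 and 18.55 TPM, were close in the libraries.

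Other cell types that lie near or pass through such tissue did not all move with the 38 genes. Of 6 genes of lymphatic endothelium 1 was over 2-fold higher in replicate 1 and 1 in replicate 2, and their summed level was 23.7 and 23.9 TPM. Of the 9 macrophage genes averaging 1 TPM or more, only Lyz2 passed the fold, with 52.02 and 17.87 TPM, while C1qa stood at 8.05 and 8.53 TPM. Granulocyte genes went the other way, with 5 of 5 over 2-fold higher in replicate 2 and summed levels of 8.71 and 21.8 TPM. The 4 hepatocyte genes were also over 2-fold higher in replicate 2, at 172.5 and 3072 TPM for Alb. None of the 6 blood endothelium genes, 5 adipocyte genes, 4 red cell genes, 6 cortex genes, 5 medulla genes or 5 proliferation genes passed 2-fold in either direction. The part of any of these cell types in the levels of the 38 genes was not tested.

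**Figure D5:**
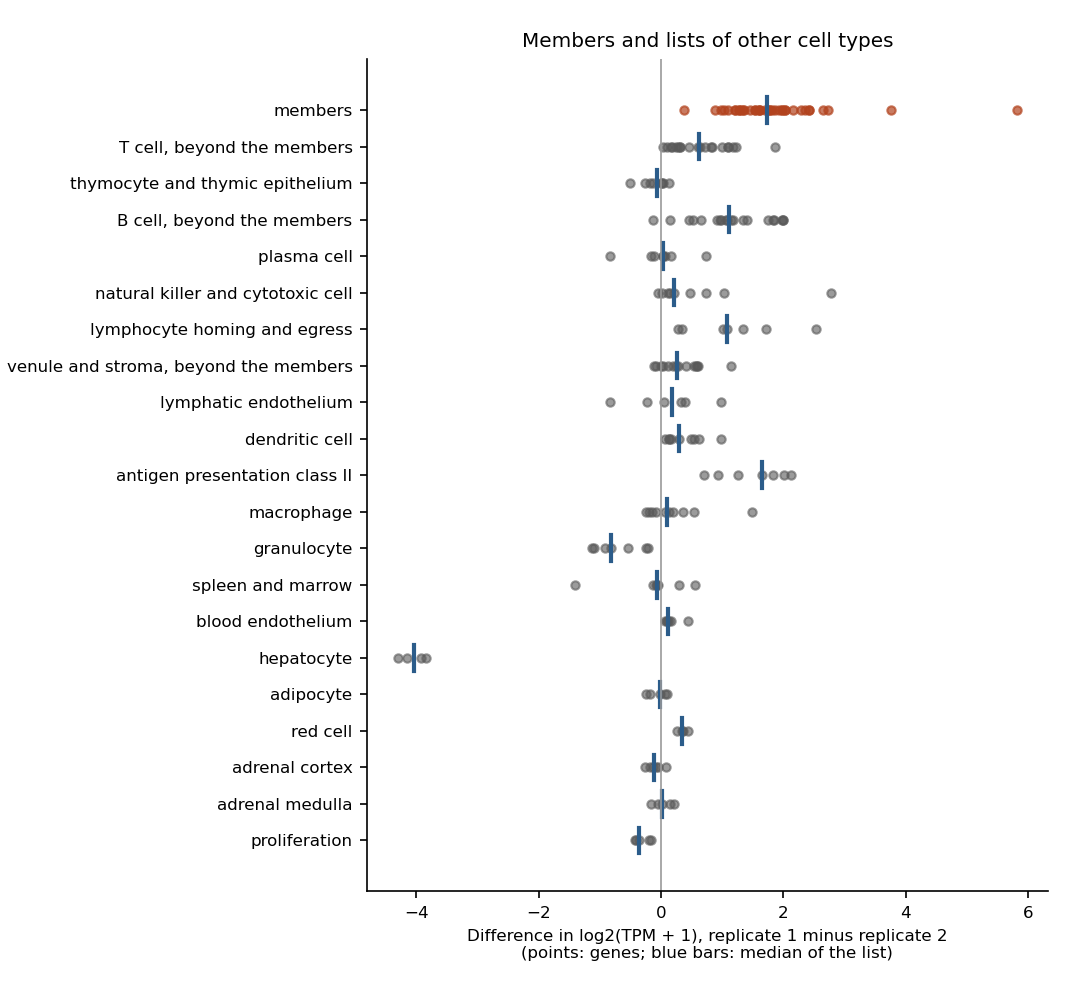
Difference in log2(TPM + 1), replicate 1 minus replicate 2, for the 38 genes (red points) and for each gene of 20 lists of other cell types and functions (grey points), with the median of each list as a blue bar. The class II list has its median at 1.65, near the 1.73 of the 38 genes, the hepatocyte list lies at -4.04, and the cortex and medulla lists lie near 0.

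Plasma cell, cytotoxic cell and thymus lists were mostly below 1 TPM. Of 8 plasma cell genes 1 had a mean of at least 1 TPM, Sdc1, at 3.98 and 7.83 TPM. Jchain, which joins secreted IgM, had 11 and 19 counts, while Mzb1, also of marginal zone B cells, had 36 and 10.6. Of 9 cytotoxic cell genes, only Ccl5 had a mean of at least 1 TPM, with 97 and 2 counts. The thymic epithelium genes Foxn1, Psmb11 and Aire had between 0 and 4 counts in each library, and Ccl25, which thymus shares with gut, had 4.84 and 4.34 TPM. Dendritic cell genes had 1 of 9 with a mean of at least 1 TPM, Zbtb46, at 5.33 and 4.80 TPM. The others were low and had more counts in replicate 1, by unlike margins. Batf3, the most abundant of them, had 29 and 12, Siglech 70 and 4, and Ccl22 42 and 3. Cd209a, with 6 and 5, had the smallest margin. The median difference in log2(TPM + 1) over the dendritic cell list was 0.293. Of 7 spleen and marrow genes, 5 had a mean of at least 1 TPM and 0 were over 2-fold higher in replicate 1.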

How the data were processed

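Total RNA of 2 adrenal libraries was sequenced after ribosomal RNA reduction with a directional kit, per the labels. Expected counts, TPM with its posterior mean, and credibility bounds (a signal with no fixed total) were deposited by the authors per gene and transcript on mm10 with GENCODE M21, per the file headers, whose column names are those of RSEM. Estimated counts and TPM per transcript with the column names of kallisto, per the file headers, were also deposited and were added up here by gene. The percent of a gene's TPM on a transcript, a deposited column, was recomputed here from the transcripts. The aligner and the versions of those tools were not given in the sources used here. Reads of CAST alleles may align less well to mm10, which was not tested.

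The 38 members and the 20 marker lists (167 genes, all found) were chosen with earlier results of these data known. Members were matched by symbol on reference chromosomes. Copies of Ccl19 and Ccl21a on an unplaced scaffold were left out, save in the sum of the Ccl21 group. A gene was called past a fold of 2 at a mean of at least 1 TPM, and differences were taken on log2(TPM + 1), which understates the change of low genes. All 38 members held at least 10 counts in replicate 1 and 33 in replicate 2, so each is given by value. From the lists mainly the most abundant genes by mean TPM were named, but not in every case. Jchain, Cd209a, Gcnt1, Ackr1, Foxn1, Psmb11 and Aire were named ahead of more abundant genes of their lists. Fut7 and the genes of receptor rearrangement are marked as singled out after their values were seen. An item of the homing list and an item of the spleen and marrow list are not reported here. Count ratios carry 95% exact intervals from the binomial split of the counts, and a library at 0 counts was set to a floor of 3. Alternatives were kallisto, TMM factors from edgeR 4.0.16 in R 4.3.3, spike-in scaling, scaling to the background genes, other minima, folds and pseudocounts, and leaving out each replicate. The fold rule was checked at a minimum mean of 5 TPM on simulated counts with known answers, which held no spread between animals. All steps were run with scipy 1.17.1, numpy 2.4.6, pandas 2.3.3 and matplotlib 3.10.9 under Python 3.11.15, save the TMM factors. Sequences came from GENCODE M21 and, for promoters, from RefSeq on GRCm38.p6, the assembly that mm10 names, leaving out bases that an annotated transcript covers. FPKM was not used.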

Additional observations from a re-analysis of the deposited data

How the results depend on the processing

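All 38 genes were higher in replicate 1 by kallisto too, which was applied to the same libraries. By kallisto all 38 averaged 1 TPM or more and 37 were over 2-fold higher, beside 478 or 3.58% of 13354 background genes. Since the list was chosen on this same contrast, nothing is read from that count. Of 64 alternatives to the summary values other than leaving out a library, 49 stayed within the replicate SD, the counting interval or 1.5 times the count, and 15 moved further. For summed levels the SD is near the mean, so staying within it says little. By kallisto the T cell receptor complex went from 23.3 to 35.8 TPM, which is within its SD of 25.1 TPM. A change of sign was possible only for the median differences and the log2 ratio of B cell to T cell members, and 0 changed sign. The members over 2-fold higher numbered 12 at a minimum mean of 5 TPM and 3 at 20 TPM, because fewer genes pass these minima. For background genes, 325 became 46 and 6 at those minima, 134 past 4-fold, and 1475 with no minimum. With a pseudocount of 0.1 TPM, the median log2 difference was 2.70 over all members, 2.59 for T cell, 2.32 for B cell, 2.91 for leukocyte and 3.61 for stromal and venule genes. With kallisto it was 2.01 over all members, 1.82 for B cell and 2.62 for leukocyte genes, and the mean log2 ratio of B cell to T cell members was 0.789. The cause of these moves was not tested. Scaling by TMM, spike-ins or background genes shifted the log2 ratios of TPM by -0.083, 0.079 and 0.019, and the median over all members on log2(TPM + 1) was then 1.68, 1.77 and 1.74. Ratios of 7 members (Cd3d, Cd3e, Zap70, Il7r, Cd22, Cr2 and Ccl19) differed by over 1.5 times between the quantifications. Leaving out either replicate leaves no comparison of the libraries, and with 2 libraries it moves a mean by a fixed part of the SD, so it says nothing on stability. Depth limits Glycam1, Madcam1, Zap70, Ccr7 and Ccl19, each under 10 counts in replicate 2. No paired analysis was possible because there is 1 group.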

Other observations

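Light chain constant and variable genes gave different pictures of kappa and lambda. The constant region of kappa chains, Igkc, stood at 24.95 TPM in replicate 1, and the lambda constant genes Iglc1, Iglc2 and Iglc3 summed to 25.2 TPM. In replicate 2 the values were 6.16 and 4.48 TPM. The ratio of kappa to lambda constant level was thus 0.990 and 1.38, or 0.786 and 1.48 by kallisto. Variable segments of kappa held 187.7 counts in replicate 1 and those of lambda 23, a ratio of 8.16, and in replicate 2 they held 49 and 6, a ratio of 8.17. By kallisto these segments held 52 and 8 counts in replicate 1 and 15.4 and 0 in replicate 2, too few to compare the ratios. The annotation holds 100 kappa and 3 lambda variable genes, and how well reads from CAST alleles align to either set was not tested.

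Some genes of receptor rearrangement in immature lymphocytes had more counts in replicate 2. Rag1, a subunit of the recombinase, had 10 counts in replicate 1 and 116 in replicate 2, and Rag2, the other subunit, had 0 and 8. Dntt, which adds bases at the joints, had 2 and 16 counts, and these 3 were also higher in replicate 2 by kallisto. Ptcra, the surrogate alpha chain of thymocytes, had 0 and 4 counts but 0.335 and 0.298 TPM by kallisto. Vpreb3, expressed in B cell precursors, was close in the libraries with 8 and 11 counts. These genes were singled out after their values were seen, and all were below 1 TPM in both libraries by RSEM.

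Among background genes averaging 5 TPM or more, the 10 outside the list with the highest ratio of replicate 1 to replicate 2 were Iglc2, Iglc1, Cd37, H2-Aa, Rac2, Tubb3, Cd74, Cyp2b10, H2-Eb1 and Eln. The leukocyte gene Rac2, a small GTPase, had 11.85 and 2.44 TPM. Not all belong to leukocytes: Eln, which encodes elastin, had 147.5 and 40.07 TPM, Tubb3, a neuronal tubulin, had 8.62 and 1.98 TPM, and Cyp2b10, a cytochrome P450, had 14.89 and 3.64 TPM. The 9 highest ratios at that minimum belonged to members, from which nothing is read because the list was chosen on this same contrast. Of the 8320 background genes at that minimum, 46 or 0.553% were over 2-fold higher in replicate 1, and 34 of these are outside the list.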
